A study of Mus musculus with 80 samples.

Results

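Hematopoietic stem cells (HSC) of newborn mice labelled as Ifnar knockout were compared with wild type HSC by RNA sequencing. The members were the libraries titled Ifnar ko or wild type HSC at postnatal day 0 (P0) in the second deposited count table. They comprised 4 of the 80 libraries of the series, labelled Ifnar ko (genotype given as Ifnar -/-), set against 5 wild type libraries. All groups share the B6 background, and neither group carried any other labelled allele or treatment. The labels give neither which receptor gene was altered nor how the allele was made, nor the organ, the sort markers, or whether a library pooled several pups. They number the libraries of each group without saying that they came from separate animals, so p-values measure the spread between these libraries. The nearest comparisons, given here only beside the HSC values, were 4 Ifnar ko and 4 wild type libraries of hematopoietic progenitor cells (HPC) at P0, and 4 Ifnar -/- and 4 Ifnar +/- libraries of HPC at P14 that were Flt3 +/+.

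Type I interferons signal through a receptor made of IFNAR1 and IFNAR2. The receptor-bound kinases JAK1 and TYK2 start a cascade that ends in the complex ISGF3, which holds STAT2 and IRF9 and binds the interferon-stimulated response element (ISRE) in the promoters of interferon-stimulated genes. Their products sense foreign nucleic acid, block viral replication, raise class I antigen presentation and limit the signal itself, and Irf7, Irf9 and Stat2 are themselves interferon-stimulated genes. In bone marrow HSC, interferon signalling is known to act on both cell cycle entry and differentiation.

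Depth was 39.5 to 46.3 M (mega) reads in Ifnar ko and 37.0 to 46.2 M reads in wild type libraries, with a mitochondrial share of 1.23% to 1.37% and 1.09% to 1.43%. Of 23 HSC markers, all of which were tested, none was called between the groups, against 1.14% of all genes tested. Both groups carry the same cell type label, so a comparison between them cannot check it. Hlf, a transcription factor of HSC, was at 367, 323, 388 and 374 CPM (reads per mega reads) in Ifnar ko libraries 1 to 4, against 395, 393, 412, 337 and 349.9 CPM in wild type libraries 1 to 5. On the first principal component, which held 28.6% of the variance, Ifnar ko libraries lay between -55.2 and -8.92 and wild type libraries between 10.04 and 51.2. Wild type libraries 4 and 5 stood apart from the other wild type libraries, with the highest levels of S phase and G2/M genes of the 9 libraries. Where leaving them out ended or added a call for a gene described here, or moved the fitted fold change printed for a called gene by over 1.5 times, the value without them is given with it. Xist and Y-linked RNA were read in every library, with Xist at 0.705 to 47.5 CPM in Ifnar ko and 15.5 to 55.1 CPM in wild type libraries, and the Y-linked Ddx3y at 73.8 to 129 and 58.6 to 72.9 CPM.

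RNA of the receptor genes was not called lower in the libraries labelled Ifnar ko. Ifnar1 was at 69.2, 62.01, 64.9 and 68.6 CPM in Ifnar ko libraries 1 to 4, against 67.9, 66.8, 70.5, 54.8 and 53.6 CPM in wild type libraries 1 to 5. The groups overlapped, with a log2 fold change (Ifnar ko over wild type, also below) of 0.08 ± 0.12 (SE), edgeR adjusted p = 0.873. Ifnar2 was at 33.8, 45.1, 34.2 and 34.4 CPM in Ifnar ko libraries, against 42.5, 36.5, 38.2, 24.1 and 28.2 CPM in wild type libraries, with a log2 fold change of 0.12 ± 0.18 (SE), edgeR adjusted p = 0.864. Both changes turned to slightly below zero when wild type libraries 4 and 5 were left out (log2 fold changes of -0.04 and -0.08). These counts cover whole genes and cannot show whether an exon was disrupted, so receptor RNA does not check the label. Of 8 receptor and kinase genes tested, edgeR called none (0 at an unadjusted p under 0.05, 0 by DESeq2 and 0 by limma-voom). Over all genes tested, edgeR called 1.14%. The kinases Jak1 and Tyk2 had log2 fold changes of 0.19 and -0.07.

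The interferon genes that were looked at gave almost no reads in either group. The list held 13 interferon genes, and others were not looked at. Together the 13 had 31 reads in Ifnar ko libraries (of 173 M) and 45 in wild type libraries (of 216 M). None passed the filter on low counts. Ifnb1, which encodes interferon beta, had 6 reads in Ifnar ko and 14 in wild type libraries. The 6 interferon alpha genes in the list had 0 in both. These counts limit what the sorted cells themselves contained of the listed genes and say nothing of interferon made elsewhere.

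**Figure D1:**
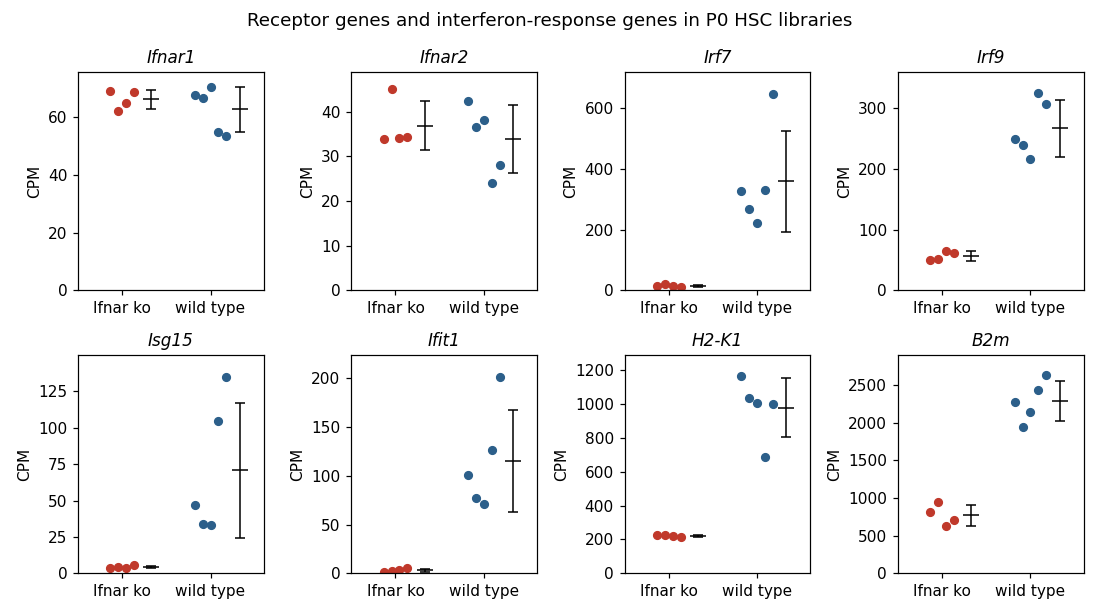
Level of 8 genes in each P0 HSC library, in CPM (linear axis from 0); points are the 4 Ifnar ko and 5 wild type libraries, and the bar beside each group is the mean with its SD. The groups overlap for Ifnar1 and Ifnar2 and do not overlap for Irf7, Irf9, Isg15, Ifit1, H2-K1 and B2m.

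Of 16224 genes tested with edgeR's quasi-likelihood test (p adjusted by the method of Benjamini and Hochberg), 185 (1.14%) were called at an adjusted p under 0.05. Lower calls made up 151 of them (0.931% of genes tested) and higher calls 34 (0.21%). Most lower calls were large, 128 having a log2 fold change under -1, and in 44 the mean in Ifnar ko libraries was under 10% of that in wild type libraries. The groups did not overlap for 148 of the 151 lower calls and 33 of the 34 higher calls, whereas over all genes tested 2.26% had every Ifnar ko library below every wild type library and 1.52% every one above. Left without wild type libraries 4 and 5, the comparison called 148 genes lower and 29 higher.

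Genes of the interferon response accounted for 80 of the 151 lower calls and for none of the higher ones. The list holds 155 genes, of which 142 were tested, and 80 of these (56.3%) were lower, against 0.931% of all genes. Its median log2 fold change was -1.20, beside a median of -0.0017 over all genes tested, and 128 members lay below zero. Averaged over the list, the level was 3.24, 3.36, 3.57 and 3.60 log2 CPM in Ifnar ko libraries 1 to 4, against 5.19, 5.04, 5.08, 5.32 and 5.62 log2 CPM in wild type libraries 1 to 5. Of the 80 lower members, 28 were at under 10% of the wild type mean, 44 at 10% to 50%, and 8 above 50%, with a median of 21.1%. Wild type library 5 was the highest of the 5 wild type libraries for 60 of these 80 genes. Without wild type libraries 4 and 5, 74 of 143 members were lower and the median was -0.95. For the counts of lower genes by family below, the share over all genes tested is likewise 0.931%.

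**Figure D2:**
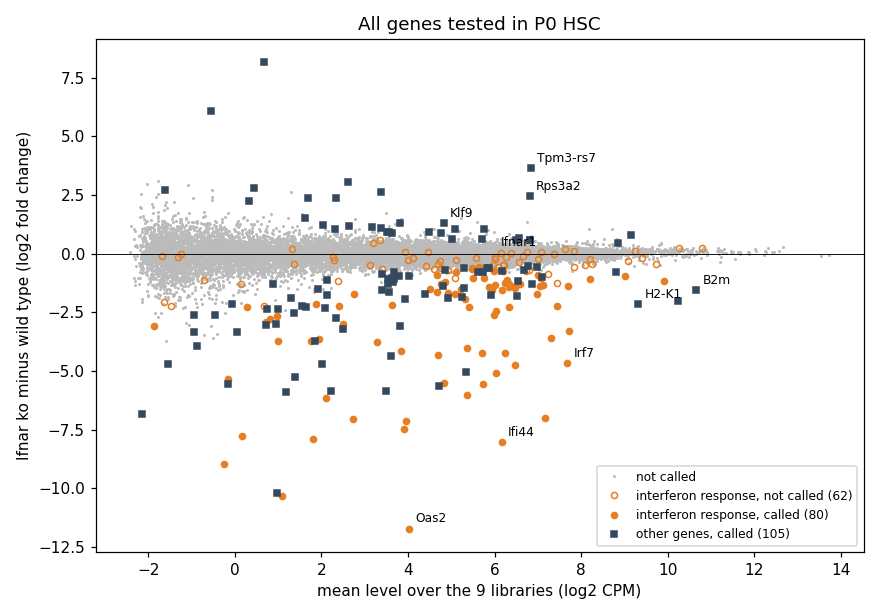
Log2 fold change of Ifnar ko over wild type (vertical) against the mean level over the 9 P0 HSC libraries in log2 CPM (horizontal) for every gene tested. Filled orange points are the 80 called interferon-response genes, all below zero, open orange points the 62 members that were not called, and dark squares the 105 other called genes.

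Among the factors that carry the signal, Irf7, Irf9 and Stat2 were lower. Irf7, which drives interferon gene transcription, was at 15.2, 18.9, 13.03 and 9.64 CPM in Ifnar ko libraries, against 328, 268, 223, 330.2 and 648 CPM in wild type libraries. Its groups were far apart, with a log2 fold change of -4.66 ± 0.33 (SE), edgeR adjusted p = 1.79e-06. Irf9, the DNA-binding partner in ISGF3, was at 49.1, 51.3, 64.7 and 60.6 CPM in Ifnar ko libraries, against 249, 239, 216, 326 and 308 CPM in wild type libraries (log2 fold change -2.25 ± 0.15 (SE), edgeR adjusted p = 1.41e-06). Stat2 was at 29.4, 27.9, 37.1 and 40.9 CPM in Ifnar ko libraries, against 72.9, 78.6, 74.1, 56.8 and 66.1 CPM in wild type libraries (log2 fold change -1.04 ± 0.15 (SE), edgeR adjusted p = 0.00161). Every Ifnar ko library lay below every wild type library for these genes, while Irf1, Irf2, Irf3, Irf5, Irf8 and Stat3 were not called and had log2 fold changes between -0.26 and 0.21.

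Usp18, the protease that removes ISG15 and blocks the receptor, was the only called gene of 7 in the feedback list. It was at 0.844, 1.78, 2.27 and 2.97 CPM in Ifnar ko libraries, against 70.6, 59.9, 57.7, 125 and 154 CPM in wild type libraries, with a log2 fold change of -5.56 ± 0.42 (SE), edgeR adjusted p = 3.84e-06. Socs1 and Socs3, feedback inhibitors of several cytokine receptors, had log2 fold changes of -0.0044 and 0.58 with edgeR adjusted p = 0.998 and 0.706.

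Nucleic acid sensors were lower in 6 of 13 tested genes, with a median log2 fold change of -1.11. Dhx58, which encodes the RNA sensor LGP2, was at 25.7, 25.6, 26.8 and 25.7 CPM in Ifnar ko libraries, against 115, 103, 99.5, 143 and 162 CPM in wild type libraries (log2 fold change -2.26 ± 0.16 (SE), edgeR adjusted p = 1.79e-06). Ddx58, which encodes RIG-I, was at 49.6, 39.9, 45.8 and 46.6 CPM in Ifnar ko libraries, against 101, 98.7, 101, 144 and 161 CPM in wild type libraries (log2 fold change -1.41 ± 0.17 (SE), edgeR adjusted p = 0.000242). These genes kept a measurable level in all 4 Ifnar ko libraries, whereas Zbp1, a sensor of Z-form nucleic acid, was nearly absent there. Zbp1 was at 0.0511, 0, 0.276 and 0.0855 CPM in Ifnar ko libraries, against 5.16, 5.68, 5.14, 8.77 and 12.9 CPM in wild type libraries, which makes a log2 fold change of -6.14 ± 0.59 (SE), edgeR adjusted p = 3.41e-05. Adar, an RNA-editing enzyme, and Ifih1, which encodes MDA5, averaged 39.9% and 37.3% of their wild type means.

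The Ifit genes, whose products bind foreign RNA, were all lower (6 of 6 tested, median log2 fold change -4.43). Ifit1 was at 1.69, 2.67, 3.77 and 5.28 CPM in Ifnar ko libraries, against 100.4, 77.5, 70.6, 126 and 201 CPM in wild type libraries (log2 fold change -5.09 ± 0.40 (SE), edgeR adjusted p = 4.53e-06). Ifit3 fell by 7.13 on the log2 scale, and Ifit2 fell by 1.5. Reads can be split between Ifit3 and its near-identical neighbour Ifit3b, so the single values of that pair are uncertain.

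The Oas genes make the second messenger that switches on RNase L, and 7 of 9 were lower with a median log2 fold change of -4.25. Oas2 had a single read in the 4 Ifnar ko libraries together, against 26.3, 17.1, 20.2, 33.95 and 48.96 CPM in wild type libraries. That is a ratio of wild type to Ifnar ko of 5090 with a 95% counting interval of 913 to 201000, which covers counting error only. Oas3 was at 0.307, 0.8302, 1.91 and 1.37 CPM in Ifnar ko libraries, against 46.05, 39.1, 33.3, 117 and 130.1 CPM in wild type libraries (log2 fold change -6.04 ± 0.58 (SE), edgeR adjusted p = 3.52e-05). Oasl1 was at 1.61, 0.646, 1.15 and 1.005 CPM in Ifnar ko libraries, against 37.3, 24.3, 24.8, 83.8 and 80.7 CPM in wild type libraries (log2 fold change -5.51 ± 0.48 (SE), edgeR adjusted p = 1.37e-05). In all 3 genes the wild type levels of libraries 4 and 5 were higher than those of libraries 1 to 3. Without libraries 4 and 5, the log2 fold changes were -5.14 for Oas3 and -4.70 for Oasl1, with a list median of -3.60, and both genes stayed called. The Oas1 genes are near-identical copies of each other and their single values are uncertain.

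Inducible GTPases were lower in 13 of 16 tested genes (median log2 fold change -1.6), against 0.931% of all genes tested. The groups did not overlap in any of the 16. Over all genes tested, 2.26% had every Ifnar ko library below every wild type library. Mx1, which blocks influenza viruses in mice with a working allele, had 0.0511, 0, 0 and 0.0428 CPM in Ifnar ko libraries, against 7.99, 5.87, 6.82, 3.48 and 6.83 CPM in wild type libraries (log2 fold change -7.89 ± 0.53 (SE), edgeR adjusted p = 1.36e-06). Iigp1, an immunity-related GTPase that attacks the vacuoles of parasites, was at 2.97, 4.73, 10.04 and 5.34 CPM in Ifnar ko libraries, against 151, 129.5, 117, 144 and 238 CPM in wild type libraries (log2 fold change -4.75 ± 0.34 (SE), edgeR adjusted p = 2.26e-06). The regulators Irgm1 and Irgm2 fell by 1.4 and 1.54 on the log2 scale. Gbp2 was the least changed of the called GTPases, with a log2 fold change of -0.76 and an edgeR adjusted p = 0.00382.

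ISG15 is a ubiquitin-like protein that is attached to other proteins, and 4 of 6 genes of its pathway were lower. Isg15 was at 3.43, 4.54, 3.84 and 5.49 CPM in Ifnar ko libraries, against 46.8, 34.2, 33.00, 105 and 135 CPM in wild type libraries (log2 fold change -4.03 ± 0.44 (SE), edgeR adjusted p = 0.00012). Its wild type libraries differed among themselves, libraries 4 and 5 being well above libraries 1 to 3, yet all 5 lay above every Ifnar ko library. The log2 fold change was -3.13 without libraries 4 and 5 (edgeR adjusted p = 1.55e-06). Ube2l6, the conjugating enzyme, and Herc6, the ligase in mice, averaged 46.8% and 42.9% of their wild type means, though the Ube2l6 call was lost without Ifnar ko library 1 or 3 (edgeR adjusted p = 0.0556 and 0.0501). Of the Ifitm genes, which bar viral entry, Ifitm3 was lower (566 ± 95.2 CPM in Ifnar ko and 1279 ± 420.1 CPM in wild type libraries, SD, n = 4 and 5, log2 fold change -1.18 ± 0.21 (SE), edgeR adjusted p = 0.0101). The Ifitm3 call was lost without Ifnar ko library 1 (edgeR adjusted p = 0.0689). The other 4 tested Ifitm genes were not called, with log2 fold changes between -0.12 and 0.43. Slfn5 and Slfn8 were the called genes among 7 Schlafen genes, at 5.64% and 25.8% of their wild type means.

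In the list for the Ifi200 family, which holds DNA-binding proteins with pyrin domains, 5 of 7 tested genes were lower. Ifi206, also of this family, was called lower but is not in the list (values below). Ifi213 had no read in the 4 Ifnar ko libraries, against 2.203, 3.71, 2.28, 2.67 and 7.98 CPM in wild type libraries. Set against a floor of 3 counts over the 4 Ifnar ko libraries, that is at least 217-fold lower. Ifi203 and Mndal kept 52.4% and 37.1% of their wild type means. Counts can be shared among the close relatives of this cluster on chromosome 1.

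A mixed list of 57 other interferon-induced effectors held 32 lower genes and a median log2 fold change of -0.97. Rtp4, a chaperone of receptor transport, was at 1.02, 1.87, 2.32 and 2.74 CPM in Ifnar ko libraries, against 226, 189, 169.9, 323 and 379.8 CPM in wild type libraries (log2 fold change -7.01 ± 0.36 (SE), edgeR adjusted p = 1.13e-07). Ifi44 was at 0.153, 0.5996, 0.713 and 0.4702 CPM in Ifnar ko libraries, against 101, 86.7, 73.9, 177 and 208 CPM in wild type libraries (log2 fold change -8.04 ± 0.46 (SE), edgeR adjusted p = 3.05e-07). Ifi27 was at 4.397, 4.15, 5.49 and 5.11 CPM in Ifnar ko libraries, against 84.4, 75.4, 66.4, 119 and 104 CPM in wild type libraries (log2 fold change -4.23 ± 0.21 (SE), edgeR adjusted p = 1.13e-07). The spread among the Ifnar ko libraries was small beside the distance between the groups in all 3 genes. Rsad2, which encodes the antiviral enzyme viperin, kept 16.2% of its wild type mean, and Bst2, which tethers budding virus to the cell, kept 41.4%. Members that were not called included Samhd1, Ly6e and Cd274, with log2 fold changes of -0.04, -0.21 and -0.14.

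**Figure D3:**
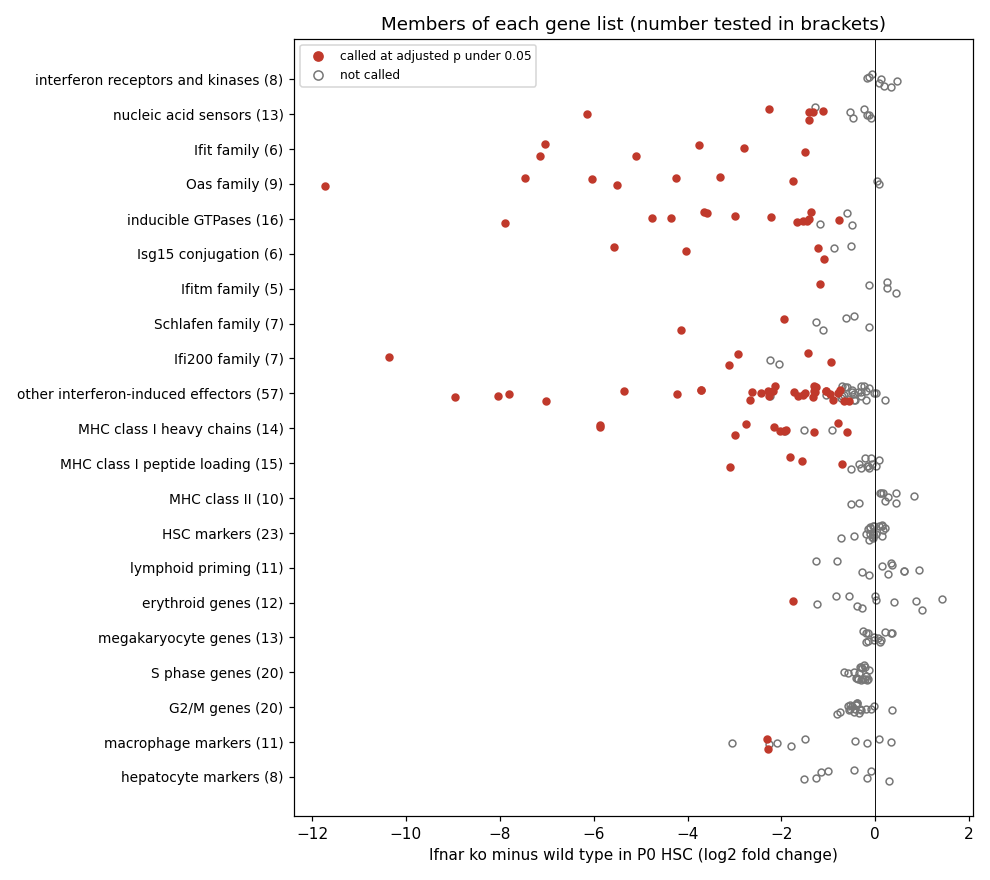
Log2 fold change of Ifnar ko over wild type in P0 HSC for each tested member of 21 gene lists, given with the number tested; filled points passed an adjusted p under 0.05. Filled points gather left of zero in the interferon-response and MHC class I lists, and none lies right of zero in the lists drawn. The neutrophil list, which held the 1 higher call of any list, is not drawn.

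Promoters of the lower genes often held a pair of GAAA repeats, the core of the ISRE. RefSeq windows of 250 bases before to 50 bases after the annotated start (build GRCm38.p6) matched 109 of the 151 lower genes, 19 of the 34 higher genes and 11031 of the genes tested. The letters GAAA, any 2 bases and GAAA again (TTTC, any 2 bases and TTTC where the motif lies on the other strand) were found in 45.9% of the lower genes' promoters, in 0% (0 of 19) of the higher genes' and in 3.82% of those of all genes tested. The share was 61.7% for lower members of the interferon response and 32.7% for members that were tested and not called. It was 26.3% for lower genes outside the interferon and MHC class I lists. The letters TTCNNNGAA, a form of the site bound by STAT dimers that reads the same on both strands and can overlap a GAAA pair, were in 18.3% of lower, 10.5% of higher and 8.38% of all tested genes' promoters. A match is a description of these letters and no evidence of binding, and no match says only that the letters are not in the window.

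Promoters of 4 lower genes are printed here 5′ to 3′ on the strand of the gene, with each match to the GAAA pair or, on the other strand, the TTTC pair in capitals, because they show the single, paired and overlapping forms of the motif in genes of different roles (conjugation, RNA binding, an antiviral enzyme and antigen presentation).
Isg15 (chr4:156200769-156201068, minus strand): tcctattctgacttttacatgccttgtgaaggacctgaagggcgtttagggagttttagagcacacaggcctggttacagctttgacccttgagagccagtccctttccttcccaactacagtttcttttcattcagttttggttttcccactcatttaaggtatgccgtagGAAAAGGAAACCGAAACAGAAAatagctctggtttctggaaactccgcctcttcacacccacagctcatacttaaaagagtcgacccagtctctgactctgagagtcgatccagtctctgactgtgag
Ifit1 (chr19:34640639-34640938, plus strand): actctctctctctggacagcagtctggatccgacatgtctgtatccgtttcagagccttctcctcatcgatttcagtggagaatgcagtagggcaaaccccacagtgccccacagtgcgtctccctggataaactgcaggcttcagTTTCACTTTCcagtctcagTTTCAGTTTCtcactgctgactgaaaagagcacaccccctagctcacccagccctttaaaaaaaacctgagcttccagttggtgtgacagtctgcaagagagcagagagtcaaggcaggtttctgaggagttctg
Rsad2 (chr12:26456403-26456702, minus strand): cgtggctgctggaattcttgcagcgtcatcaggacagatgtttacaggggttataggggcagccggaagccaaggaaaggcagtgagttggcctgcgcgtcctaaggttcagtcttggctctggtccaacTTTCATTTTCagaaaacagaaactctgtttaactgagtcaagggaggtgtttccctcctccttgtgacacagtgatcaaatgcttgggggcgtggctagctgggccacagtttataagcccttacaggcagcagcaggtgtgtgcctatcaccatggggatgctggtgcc
B2m (chr2:122147437-122147736, plus strand): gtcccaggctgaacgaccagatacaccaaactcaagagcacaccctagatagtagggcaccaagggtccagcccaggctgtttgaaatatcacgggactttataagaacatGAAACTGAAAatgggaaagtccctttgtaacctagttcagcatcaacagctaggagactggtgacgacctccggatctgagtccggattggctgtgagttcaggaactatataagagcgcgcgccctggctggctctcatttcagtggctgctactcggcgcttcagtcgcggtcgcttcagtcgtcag
Isg15 held 3 overlapping matches that begin 78, 72 and 66 bases before the start. Ifit1 held 2 that begin 104 and 85 bases before the start, Rsad2 a single match at 120 and B2m a single match at 139. Stat2, Oas3 and Ifit3 also held a match, while the windows of Irf7, Irf9, Ifi44 and Tap1 did not hold these letters.

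Heavy chain genes of MHC class I, which present peptides to T cells, were mostly lower. Of 14 class I heavy chain genes tested, 11 (78.6%) were lower, against 0.931% of all genes tested. All 14 lay below zero and the median log2 fold change was -1.93. H2-K1 was at 224, 225, 219 and 212 CPM in Ifnar ko libraries, against 1167, 1034, 1007, 686 and 998 CPM in wild type libraries (log2 fold change -2.15 ± 0.14 (SE), edgeR adjusted p = 1.36e-06). H2-D1 was at 456, 502, 400.2 and 417 CPM in Ifnar ko libraries, against 2025, 2116, 1758, 1346 and 1784 CPM in wild type libraries (log2 fold change -2.02 ± 0.14 (SE), edgeR adjusted p = 1.77e-06). Both genes stayed well expressed in every Ifnar ko library, whereas the nonclassical H2-Q7 was at 0.128, 0.184, 0.04597 and 0.192 CPM there, against 10.99, 7.45, 9.03, 4.46 and 9.32 CPM in wild type libraries (log2 fold change -5.87 ± 0.40 (SE), edgeR adjusted p = 1.37e-06). H2 genes share near-identical sequence, so the division of reads among them is uncertain.

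Of 15 genes for peptide loading of class I molecules, 4 (26.7%) were lower, against 0.931% of all genes tested. B2m, the light chain of class I molecules, was at 809, 952, 629.6 and 708 CPM in Ifnar ko libraries, against 2282, 1948, 2143, 2432 and 2634 CPM in wild type libraries (log2 fold change -1.56 ± 0.14 (SE), edgeR adjusted p = 1.6e-05). Tap1, a subunit of the peptide transporter, was at 37.6, 34.2, 42.1 and 38.1 CPM in Ifnar ko libraries, against 148, 131, 127, 129 and 135 CPM in wild type libraries (log2 fold change -1.82 ± 0.11 (SE), edgeR adjusted p = 7.42e-07). Nlrc5, the transactivator of class I genes, was at 1.81, 1.73, 4.32 and 2.97 CPM in Ifnar ko libraries, against 17.03, 22.01, 23.9, 20.6 and 32.7 CPM in wild type libraries (log2 fold change -3.10 ± 0.29 (SE), edgeR adjusted p = 3.14e-05). The 3 genes had no overlap between groups. Psmb9, an immunoproteasome subunit, was lower by a log2 fold change of -0.70 ± 0.13 (SE), edgeR adjusted p = 0.017, and this call was lost without Ifnar ko library 1 or 4 or wild type library 5 (edgeR adjusted p between 0.0532 and 0.0924), and without wild type libraries 4 and 5 (0.0785). Tap2, Tapbp and Psmb8 were not called (log2 fold changes between -0.52 and -0.30). None of 10 MHC class II genes was called by edgeR, against 1.14% of all genes tested, and their median log2 fold change was 0.19. At an unadjusted p under 0.05, 2 were higher, and DESeq2 called 1 higher and limma-voom 0. Without wild type libraries 4 and 5, edgeR called 1 higher, Cd74.

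Lists for stem cell identity and lineage held few calls, in a comparison that called 1.14% of all genes tested. Counts this near that share are not particular to these lists. Of 23 HSC markers, 11 lymphoid priming, 11 myeloid granule and 13 megakaryocyte genes tested, edgeR called none, with medians between -0.11 and 0.28. DESeq2 and limma-voom also called 0 in each, and at an unadjusted p under 0.05 there were 2, 4, 3 and 0 genes. Procr, a surface marker of HSC, was at 145, 179, 160.1 and 132 CPM in Ifnar ko libraries, against 159, 137, 134, 129.9 and 111 CPM in wild type libraries (log2 fold change 0.20 ± 0.13 (SE), edgeR adjusted p = 0.679). Mecom, a transcription factor of HSC, was at 292, 196, 291 and 284 CPM in Ifnar ko libraries, against 242, 231, 279.9, 281 and 288 CPM in wild type libraries (log2 fold change 0.01 ± 0.14 (SE), edgeR adjusted p = 0.993). The groups overlapped for both. In the erythroid list, 1 of 12 genes was lower, Gata1, the master transcription factor of erythroid and megakaryocyte cells. It was at 1.304, 1.43, 1.195 and 3.505 CPM in Ifnar ko libraries, against 7.12, 7.87, 5.16, 8.08 and 3.36 CPM in wild type libraries (log2 fold change -1.76 ± 0.36 (SE), edgeR adjusted p = 0.0286). Ifnar ko library 4 overlapped with wild type library 5, and the call was lost when any of the Ifnar ko libraries 1 to 3 or wild type libraries 1 and 2 was left out (edgeR adjusted p between 0.0663 and 0.141). Gfi1b, a repressor that acts with Gata1 and was named after its values were seen, was at 6.52, 13.2, 20.6 and 21.99 CPM in Ifnar ko libraries, against 73.3, 70.05, 65.7, 26.8 and 46.3 CPM in wild type libraries (log2 fold change -1.86 ± 0.35 (SE), edgeR adjusted p = 0.0154).

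None of the cell cycle genes was called by edgeR, DESeq2 or limma-voom, where edgeR called 1.14% of all genes tested. For G2/M, that was 0 of 20, with 1 at an unadjusted p under 0.05, and for S phase 0 of 20, with 0. Still, 19 and 20 of them lay below zero, with medians of -0.41 and -0.29. The G2/M level was 5.70, 5.81, 6.12 and 5.45 log2 CPM in Ifnar ko libraries 1 to 4, against 5.50, 5.67, 5.63, 6.55 and 6.87 log2 CPM in wild type libraries 1 to 5. The S phase level was 6.19, 6.28, 6.60 and 6.61 log2 CPM in Ifnar ko libraries, against 6.22, 6.38, 6.26, 7.41 and 6.997 log2 CPM in wild type libraries. Wild type libraries 4 and 5 were above all others on both lists. Without them, 1 of 20 G2/M and 2 of 20 S phase genes lay below zero, and the medians became 0.16 and 0.10.

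**Figure D4:**
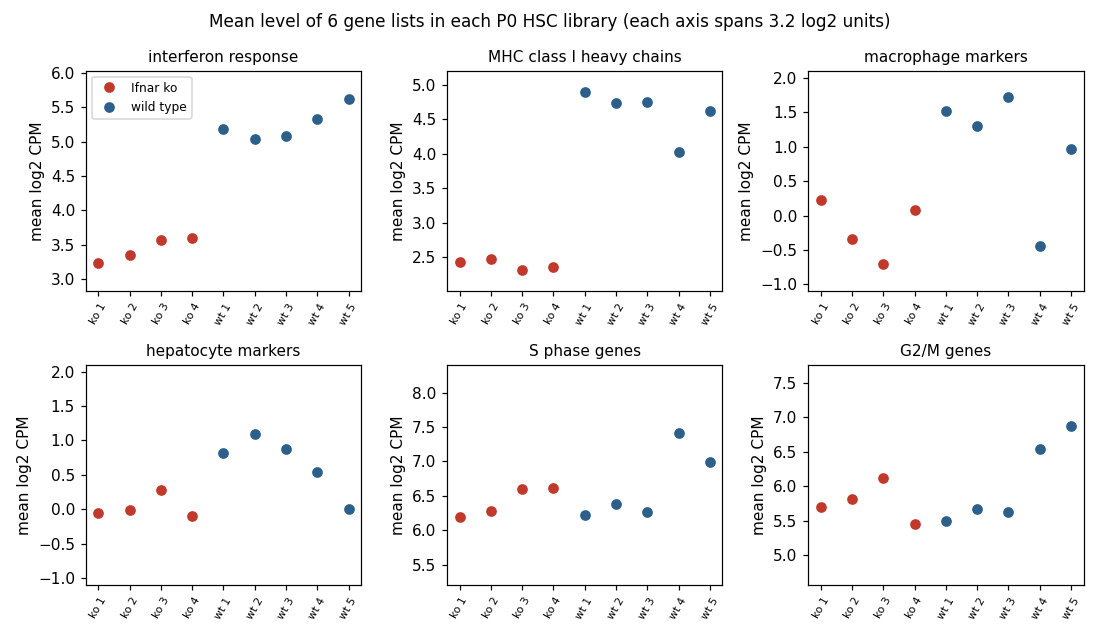
Mean log2 CPM of 6 gene lists in each P0 HSC library, Ifnar ko libraries 1 to 4 left of wild type libraries 1 to 5, all axes spanning 3.2 log2 units. The interferon response and MHC class I levels separate the groups, S phase and G2/M levels are highest in wild type libraries 4 and 5, and the macrophage level is lowest in Ifnar ko library 3 with wild type library 4 among the Ifnar ko values.

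Some macrophage markers, of a cell type a sort could also hold, were lower at levels of a few CPM. Of 11 macrophage markers tested, 2 were lower (C1qb and Vcam1), 9 lay below zero and the list median was -1.79. Cd68 and Cd163 lay above zero (log2 fold changes of 0.33 and 0.09) and were not called. In this list, DESeq2 called 4 genes lower and limma-voom 1. The level was 0.23, -0.34, -0.71 and 0.09 log2 CPM in Ifnar ko libraries, against 1.52, 1.31, 1.72, -0.44 and 0.97 log2 CPM in wild type libraries. Summed over the list, that was 106 to 148 CPM in Ifnar ko and 68.4 to 136 CPM in wild type libraries, ranges that overlap. C1qb, a complement subunit, was at 2.07, 0.738, 0.6895 and 1.73 CPM in Ifnar ko libraries, against 11.3, 5.14, 8.51, 2.24 and 5.21 CPM in wild type libraries (log2 fold change -2.31 ± 0.46 (SE), edgeR adjusted p = 0.0229). Vcam1, an adhesion molecule of macrophages and stroma, was at 1.05, 1.01, 1.29 and 0.534 CPM in Ifnar ko libraries, against 6.899, 4.18, 5.805, 1.88 and 5.01 CPM in wild type libraries (log2 fold change -2.29 ± 0.37 (SE), edgeR adjusted p = 0.00464). Wild type library 4 was the nearest to the Ifnar ko libraries in both, and 5 of 11 markers were lower without wild type libraries 4 and 5 (3 without library 4 alone). The C1qb call was lost without Ifnar ko library 2 or 3 or wild type library 1 or 3 (edgeR adjusted p between 0.0527 and 0.119). It was also lost with limma-voom (adjusted p = 0.0769) and with the Y-linked level as a covariate (edgeR adjusted p = 0.162). Outside the list, and named after their values were seen, the macrophage genes Cd5l, Clec4f and Slc40a1 averaged 19.2%, 17.04% and 40.4% of their wild type means. The part of such cells in the other lower genes was not tested, and in bulk samples fewer cells of a type and less RNA per cell cannot be told apart. For hepatocyte markers, edgeR called 0 of 8 (2 lower at an unadjusted p under 0.05, 0 by DESeq2 and limma-voom), with a median of -0.73. Their level was -0.05, -0.01, 0.28 and -0.10 log2 CPM in Ifnar ko libraries, against 0.81, 1.10, 0.88, 0.54 and -0.00 log2 CPM in wild type libraries, so that wild type libraries 1 to 4 lay above every Ifnar ko library and library 5 among them. Without wild type library 4, 1 of 8 was lower, and without libraries 4 and 5 also 1 (Ahsg, log2 fold change -1.49, edgeR adjusted p = 0.0231), where the median was -0.87. Summed levels were 13.9 to 16.7 CPM in Ifnar ko and 13.97 to 21.8 CPM in wild type libraries, and their part in the other lower genes was not tested. The hepatocyte gene Serpina1b, outside the list and named after its values were seen, was called lower (log2 fold change -2.63, edgeR adjusted p = 0.0445). Without wild type libraries 4 and 5, its values were -3.06 and 0.00363. Markers of mast cells, of T and NK cells, of B cells, of stroma and of endothelium held no call among 20 tested genes in all. None of these was under 0.05 unadjusted. Of 5 neutrophil markers tested, 1 was higher (Ltf, log2 fold change 0.92), while 3 lay below zero and the list median was -0.10. The Ltf call was lost in 6 of 19 other settings. Over all genes tested, edgeR called 1.14%.

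Genes higher in Ifnar ko HSC were fewer, and 1 of the 34 was in any list (Ltf, a neutrophil granule protein). Tpm3-rs7, a sequence related to the tropomyosin gene Tpm3, was at 141, 217, 296 and 279.6 CPM in Ifnar ko libraries, against 19.1, 19.2, 22.3, 14.4 and 17.98 CPM in wild type libraries (log2 fold change 3.65 ± 0.21 (SE), edgeR adjusted p = 3.05e-07). Rps3a2, a copy of the ribosomal protein gene Rps3a1, was at 176, 249, 180.4 and 225 CPM in Ifnar ko libraries, against 38.6, 36.99, 36.5, 37.9 and 38.7 CPM in wild type libraries (log2 fold change 2.46 ± 0.13 (SE), edgeR adjusted p = 1.13e-07). The 5 wild type libraries were almost level for Rps3a2, and all 4 Ifnar ko libraries were several times above them. The gene Rps3a1 itself was at 2608 ± 607 CPM in Ifnar ko and 2598 ± 194 CPM in wild type libraries (SD, n = 4 and 5, log2 fold change 0.01 ± 0.14 (SE), edgeR adjusted p = 0.993), and Tpm3 had a log2 fold change of -0.51 ± 0.12 (SE), edgeR adjusted p = 0.0696 (-0.61 and 0.0169 without wild type libraries 4 and 5). Reads can move between such copies and their parent genes, which makes both values uncertain. Annotated pseudogenes made up 26.5% of higher calls, 6.62% of lower calls and 10.4% of genes tested.

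Cd1d2, a lipid-presenting molecule close in sequence to Cd1d1, was at 17.5, 19.4, 25.1 and 14.8 CPM in Ifnar ko libraries, against 3.45, 4.59, 5.12, 1.26 and 1.34 CPM in wild type libraries (log2 fold change 2.60 ± 0.37 (SE), edgeR adjusted p = 0.00159). Its partner Cd1d1 was not called (log2 fold change -0.07 ± 0.15 (SE), edgeR adjusted p = 0.914). Klf9, a transcription factor induced by glucocorticoids and linked to quiescence, was at 63.2, 52.4, 27.7 and 25.8 CPM in Ifnar ko libraries, against 13.8, 22.4, 19.6, 13.6 and 17.01 CPM in wild type libraries (log2 fold change 1.29 ± 0.26 (SE), edgeR adjusted p = 0.0242). Ifnar ko libraries 1 and 2 were above libraries 3 and 4. The Klf9 call was lost in 9 of 19 other settings, among them the one without wild type libraries 4 and 5 (edgeR adjusted p = 0.109). Wfdc17 and Wfdc18, neighbouring genes of secreted whey acidic proteins on chromosome 11, averaged 75.6 ± 10.2 and 20.96 ± 1.97 CPM in Ifnar ko libraries, against 36.3 ± 9.45 and 8.38 ± 1.23 CPM in wild type libraries (SD, n = 4 and 5). The call of Wfdc17 was lost without Ifnar ko library 2 (edgeR adjusted p = 0.0584). Other named higher genes, with log2 fold changes between 0.64 and 1.13, were Selenbp2, Mpst, Kbtbd11, Ltf, Tubb6, Rflnb, Srsf5, Pigp and Fam219b. Without wild type libraries 4 and 5, the calls of Kbtbd11, Tubb6, Srsf5, Pigp and Fam219b were lost (edgeR adjusted p between 0.0528 and 0.118). Of the 16 higher genes named by rule, 4 stayed called in all other settings tried, against 41 of 47 lower ones.

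Genes beside Ifnar1 on chromosome 16 were looked at because the labels do not describe the allele. Among the 25 tested genes on each side, 1 of 50 was called (against 1.14% of all genes tested), the predicted gene Gm10785, at 1.01 ± 0.295 CPM in Ifnar ko and 2.45 ± 0.196 CPM in wild type libraries (SD, n = 4 and 5, log2 fold change -1.28, edgeR adjusted p = 0.0398, and 0.123 without wild type libraries 4 and 5). The groups did not overlap for 5 of the 50, where over all genes tested 2.26% did not overlap with Ifnar ko lower and 1.52% with Ifnar ko higher. Named after their values were seen, 4 of the 5 had lower values in Ifnar ko and lie on the same side of Ifnar1, Gm10785, Itsn1, Cbr1 and Morc3 being 9, 11, 20 and 25 tested genes away. Itsn1, Cbr1 and Morc3 were not called, with log2 fold changes of -0.75, -0.54 and -0.32 (edgeR adjusted p = 0.112, 0.0529 and 0.413), though Itsn1 was lower without wild type libraries 4 and 5 (-0.95, 0.0117). The fifth, the pseudogene H3f3a-ps2, lies 4 genes away on the other side and had a log2 fold change of 0.45 (0.549). The median over the 50 was -0.03. The share of lower calls by chromosome was highest for chromosomes 17 and 19 (2.08% and 2.06%), which hold the H2 and the Ifit genes.

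Progenitors of the same age gave the closest comparison for the HSC calls. In P0 HPC, 1347 of 12988 genes tested (10.4%) were called, 702 lower (5.4%) and 645 higher (4.97%), at a depth of 11.68 to 14.72 M reads. Of the 151 genes lower in HSC, 126 were tested in HPC, and 109 of them were also lower there, while 4 were higher. Of the 34 genes higher in HSC, 28 were tested in HPC, 14 had the same sign, 2 were also higher (Klf9 and Eif4b, whose HSC calls were both lost without wild type libraries 4 and 5, the edgeR adjusted p of Eif4b being 0.147) and 4 were lower. For the 134 interferon-response members tested in both, the median log2 fold change was -1.14 in HSC and -1.30 in HPC, and the fold changes had a Pearson r of 0.903 across genes, which share their libraries and are not independent replicates. In HPC, 101 of 136 members were lower and 1 higher.

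**Figure D5:**
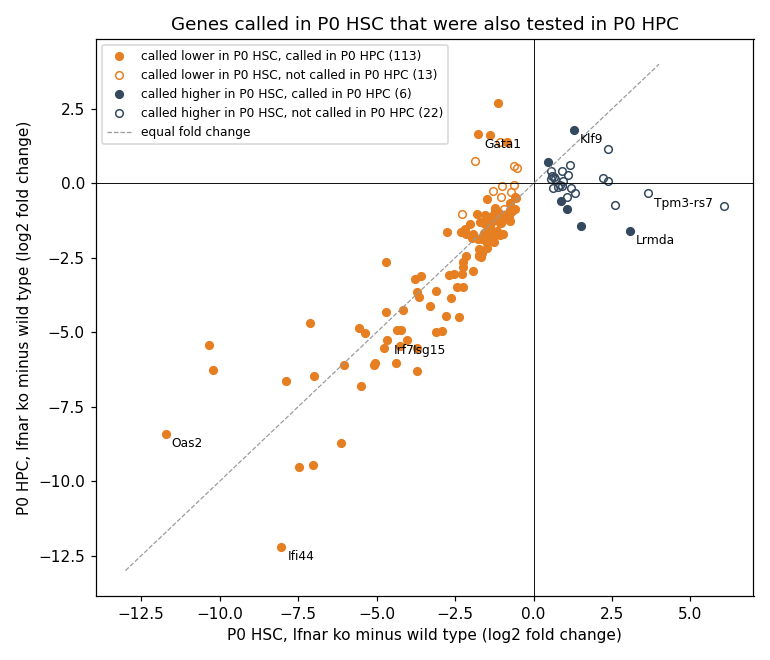
Log2 fold change of Ifnar ko over wild type in P0 HPC (vertical) against that in P0 HSC (horizontal) for genes called in P0 HSC and tested in both; filled points were also called in HPC, and the dashed line marks equal fold changes. Of 126 genes lower in HSC, 118 lie below zero in HPC, and of 28 higher genes 14 lie above zero.

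The difference between the Ifnar effects in HSC and HPC was tested directly, and 293 of 17191 genes (1.7%) were called, 118 with a higher effect in HSC (0.686%) and 175 with a lower one (1.02%). Among interferon-response members, 4 of 146 were called, all with a smaller fall in HSC, and none was called with a larger one. In simulated data, the test recovered 18 of 50 genes set to a log2 difference of -1, so such differences can be missed. Rsad2 had log2 fold changes of -2.63 in HSC and -3.84 in HPC, and Ifi27l2a had -3.71 and -6.31. Irf8, a factor of monocyte and lymphoid fate, had -0.26 in HSC and -2.02 in HPC, and Ifitm6 had -0.12 and -3.45. Ifitm6 was near the floor in HSC, at means of 0.2475 and 0.2712 CPM in Ifnar ko and wild type libraries. In HPC its means were 0.8924 and 9.915 CPM. For these 4 genes the edgeR adjusted p of the difference lay between 0.00145 and 0.0465.

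HPC held more calls than HSC in the lineage lists, as over all genes tested. Called shares over all genes were 10.4% in HPC, 1.14% in HSC and 1.7% for the difference. Lymphoid priming genes were lower in HPC (12 of 14, median -1.69) and not called in HSC (0 of 11, median 0.28), and the effect in HSC was higher for 5 of 14 genes by the test of the difference. Erythroid genes were higher in HPC (7 of 11), where HSC had a single lower call in 12, and the effect in HSC was lower for 5 of 15 genes. Megakaryocyte genes were higher in HPC (7 of 13) and not called in HSC (0 of 13), with a lower effect in HSC for 3 of 14. Myeloid granule genes were lower in HPC for 6 of 13, with 1 higher, against 0 of 11 called in HSC, and the effect in HSC was higher for 4 of 14. HSC markers were higher in HPC for 12 of 23 and lower for 2, against 0 of 23 called in HSC, and the effect in HSC was lower for 6 of 23. Gata1 had a log2 fold change of -1.76 in HSC and 1.66 in HPC, a difference of -3.40 ± 0.49 (SE), edgeR adjusted p = 0.000873. Mpo, the myeloperoxidase of primary granules, had 0.36 in HSC and -2.13 in HPC, a difference of 2.50 ± 0.26 (SE), edgeR adjusted p = 3.66e-05. Tpm3-rs7 had 3.65 in HSC and -0.34 in HPC, a difference of 3.998 ± 0.28 (SE), edgeR adjusted p = 6.01e-08. HSC and HPC libraries carried different codes in their titles, whose meaning the labels do not give. Each fold change was taken among libraries that share a code, while in levels the code and the cell type cannot be told apart.

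At P14, the HPC controls were heterozygous, and 42 of 16333 genes (0.257%) were called, all lower in Ifnar -/- cells (edgeR, with 3361 at an unadjusted p under 0.05). Of the 151 genes lower in P0 HSC, 143 were tested at P14, 121 had the same sign and 26 were also lower. Of the 34 higher ones, 32 were tested and none was called. Irf7 had a log2 fold change of -2.37 at P14 (edgeR adjusted p = 0.00105), and Isg15 had -2.92 (0.000907). H2-D1 had 0.10 there and was not called (edgeR adjusted p = 0.921). The interferon response had 25 of 144 members lower at P14 and a median log2 fold change of -0.45. Age, control genotype and cell type all differ between that comparison and the P0 HSC one, so the values stand side by side without a test.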

How the data were processed

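The authors deposited raw read counts per gene, in whole numbers, in a table of 40481 genes, and 40254 identifiers matched a symbol. Reads were aligned with STAR (given as version 3.0.4) and counted with featureCounts 1.4.5 of Subread, per the submitters' processing notes. RNA came from a Qiagen micro kit and cDNA from a Clontech kit, per the labels' protocols. The build, the annotation and the strand setting are not given in the sources used here. Overlapping and antisense genes therefore cannot be told apart. Chromosomes, gene order and biotypes came from GENCODE M21, and promoters from RefSeq.

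Counts were tested with edgeR 4.0.16 in R 4.3.3 (quasi-likelihood F-test, TMM factors, default filter on low counts, two-sided) over the 9 P0 HSC libraries without covariates, and p-values were adjusted over all 16224 genes tested. The HPC comparisons were fitted separately, and the difference of effects in a fit of the 4 P0 groups. The planned tests suited the unit and were kept. The steps were tested on simulated data. For the P0 HSC comparison, 49, 31, 40 and 50 of 50 genes set to log2 changes of -3, -1, 1 and 3 were called. Beside them, 16 unchanged genes were called falsely. CPM used TMM-scaled library sizes, and list levels a prior count of 2. The SE of a fold change was its absolute log2 value divided by the square root of the F statistic. It is therefore approximate, above all for genes nearly absent from a group. Alternatives were RLE and upper-quartile factors, DESeq2 1.42.0, limma-voom 3.58.1, other filters, a Y-linked covariate, a replicate block and each library left out.

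Named genes were Ifnar1 and Ifnar2, the 15 non-overlapping called genes per direction of largest change at a mean log2 CPM from 3 upward, up to 4 called members per list, called neighbours of Ifnar1 and 5 genes per direction of the HSC minus HPC difference. Predicted genes were left out, and 1 gene is not reported here. Members and lists were chosen with earlier results of these data known.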

Additional observations from a re-analysis of the deposited data

Results flagged for a closer look

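Of 230 groups of values looked at (each named gene and each list level, in Ifnar ko and in wild type), 17 had a library far from the rest, where chance gives about 1 in 20. Wild type library 5 stood above the other wild type libraries, which ranged more narrowly, for Ifit3 (54.6 CPM), Iigp1 (238 CPM), Irf7 (648 CPM), Tgtp1 (72.5 CPM), Ifit3b (23.6 CPM), Slfn5 (39.3 CPM) and Ifi213 (7.98 CPM), and for the mean level of nucleic acid sensors (5.16 log2 CPM). In all of these every other wild type library was still above every Ifnar ko library. Ifnar ko library 4 was high for Ifit3 (0.513 CPM) and for Gata1 (3.51 CPM, against 1.20 to 1.43 CPM in the other Ifnar ko libraries). Ifnar ko library 3 was high for Oas2 (0.0230 CPM, a single read), Ifi204 (0.690 CPM) and Dhx58 (26.8 CPM, against 25.6 to 25.7 CPM). Ifnar ko library 2 was high for Ifnar2 (45.1 CPM, against 33.8 to 34.4 CPM) and low for B cell markers (0.21 log2 CPM). Wild type library 4 was high for Mpo (10.2 CPM), and wild type library 1 was low for Cttn (126 CPM, against 132 to 134 CPM).

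The Ifnar effect differed between HSC and HPC, by the test of the difference itself, for 16 of the named genes (values are the HSC effect minus the HPC effect in log2). It was higher in HSC for Tpm3-rs7 (3.998), Cd1d2 (3.36), Cd33 (2.96), Ccl9 (2.74), Mpo (2.51), Rps3a2 (2.44), Cd52 (2.09), Wfdc17 (1.93), Wfdc18 (1.66) and Tubb6 (1.5). It was lower in HSC for Ehd3 (-3.75), Gata1 (-3.40), Timp3 (-2.76), Cavin1 (-1.67), Tmem246 (-1.56) and Cttn (-1.40). Among them, Tpm3-rs7, Cd1d2, Rps3a2, Wfdc18, Wfdc17, Tubb6 and Cd33 were called higher and Gata1 lower in HSC, and the others were not called in HSC. Rps3a2 did not pass the filter on low counts in HPC, at means of 0.347 and 0.339 CPM in Ifnar ko and wild type HPC. Its mean in wild type HSC was 37.7 CPM. Cd1d2 was at 0.692 and 1.17 CPM in HPC, so the HPC effects of both genes are uncertain. Cd33, a sialic acid receptor of myeloid cells, was at 5.11, 4.15, 4.597 and 4.96 CPM in Ifnar ko HSC, against 1.49, 2.67, 1.96, 1.001 and 1.11 CPM in wild type HSC. Its call was lost without Ifnar ko library 1 (edgeR adjusted p = 0.0545). In HPC it was at 12.7, 20.1, 17.2 and 27.01 CPM in Ifnar ko libraries, against 50.4, 47.3, 46.8 and 62.95 CPM in wild type libraries.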

How the results depend on the processing

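Counts of lower, interferon-response and all calls kept within 1.5 times of their values with every library left out in turn and under RLE or upper-quartile factors, limma-voom, both other filters, the joint fit and the Y-linked covariate. DESeq2 called 336 genes (243 lower, 93 higher), among them all 185 of the edgeR calls. Leaving out each library gave 141 to 186 calls, 122 to 154 lower and 18 to 35 higher, 72 to 79 lower interferon-response members, and medians of that list from -1.31 to -1.09. The higher count fell to 18 without Ifnar ko library 1, to 22, 20 and 21 without wild type library 1, 3 or 5. Without wild type libraries 4 and 5 (chosen after seeing the data) the list median was -0.95, and Ifnar1 (-0.0404) and Ifnar2 (-0.0763) turned direction. For the HSC minus HPC difference, DESeq2 called 754 genes (324 higher, 430 lower), and leaving out libraries gave 215 to 335 calls, 91 to 146 higher and 121 to 189 lower. Of 63 named genes called, 45 stayed called in every setting. The promoter share moved to 31.2% of lower and 1.12% of all tested genes when a C was also required after the second GAAA, and to 6.47% of all tested genes where a spacing of 1 base was also allowed (53.2% of lower genes). The cause was not tested, apart from the motif settings, which by construction ask for more or fewer letters.

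With the replicate number as a block (wild type library 5 left out) 151 genes were called, 127 lower and 24 higher. The deviations of same-numbered libraries correlated at 0.02, 0.09, -0.01 and 0.10, so the numbers were not taken to pair the libraries. Depth limits genes near the floor, such as the interferon genes.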

Other observations

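Some lower genes outside the lists, named after their values were seen, are known from other cells to be interferon-induced, among them Ddx60, Batf2, Il18bp, Trafd1 and Ifi206. Ifi206 had no read in Ifnar ko libraries, against 2.14, 1.895, 2.21, 2.31 and 8.62 CPM in wild type libraries, which is at least 198-fold lower on the floor of 3 counts over the group. Of the 151 lower genes, 53 were in no list, and 21 of these had symbols of predicted genes.

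Nnt, a mitochondrial proton-pumping enzyme whose gene carries a deletion in the C57BL/6J substrain, was called lower in HSC. It was at 109, 88.5, 75.4 and 79.8 CPM in Ifnar ko libraries, against 136, 129.7, 146, 274 and 202 CPM in wild type libraries (log2 fold change -1.01 ± 0.21 (SE), edgeR adjusted p = 0.0371). The call was lost without wild type libraries 4 and 5 (-0.63, edgeR adjusted p = 0.0604). In P0 HPC it was at 144, 92.9, 194 and 142 CPM in Ifnar ko libraries, against 179, 124, 166 and 134 CPM in wild type libraries (log2 fold change -0.08, edgeR adjusted p = 0.843).

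Lrmda, a leucine-rich repeat gene of melanocyte differentiation, was called higher in HSC and lower in HPC. It was at 10.2, 11.9, 9.77 and 15.9 CPM in Ifnar ko HSC, against 1.27, 1.04, 0.946, 2.67 and 1.202 CPM in wild type HSC (log2 fold change 3.07 ± 0.30 (SE), edgeR adjusted p = 3.85e-05). In P0 HPC it was at 9.88, 8.68, 10.3 and 1.19 CPM in Ifnar ko libraries, against 24.2, 26.8, 25.2 and 13.8 CPM in wild type libraries (log2 fold change -1.58, edgeR adjusted p = 0.0403). Lrmda, Rps3a2 and Tpm3-rs7 are all on chromosome 14, at places 81, 475 and 503 in the order of its 534 tested genes, so that Rps3a2 and Tpm3-rs7 lie 28 places apart and Lrmda 394 places from Rps3a2. Rps3a2 was at 0.341, 0.305, 0.0746 and 0.668 CPM in Ifnar ko HPC, against 0.398, 0.237, 0.382 and 0.3403 CPM in wild type HPC.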
